A study of Caenorhabditis elegans with 6 samples.

Results

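The genes described here encode the small RNA machinery of Caenorhabditis elegans, and they are described as templates that small RNAs are made from or against. The list holds 57 genes of 32238 in each deposited table. It was drawn up by function, as Argonautes, Dicer and its partners, RNA-dependent RNA polymerases, mutator, ERI and nuclear RNAi factors and microRNA factors. Of the 57 names, 56 stood in the tables as such, and cde-1 was read from the row of cid-1, another name of that gene. The comparison set the double mutant dot-1.1(knu339); ced-3(n1286), with 3 libraries of embryos, against the single mutant ced-3(n1286), also with 3, so the ced-3 mutation was carried by all 6. DOT-1.1 is the worm counterpart of DOT1L, which methylates lysine 79 of histone H3, and CED-3 is the caspase of programmed cell death. Embryos were freed from adults grown at 20 °C with alkaline hypochlorite, and libraries of inserts of 18 to 40 bases were sequenced. The age of the embryos was not given, and whole embryos hold many cell types.

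In worms, a primary small RNA bound by an Argonaute leads RNA-dependent RNA polymerases to a messenger RNA, on which they make short secondary siRNAs antisense to it. These 22G-RNAs are loaded onto worm-specific Argonautes (WAGOs) and onto CSR-1, and germline WAGO targets are silenced while CSR-1 targets are germline-expressed genes. The machinery is itself encoded by messenger RNAs that can be templates of these polymerases. Many embryonic siRNAs are inherited from the mother. Counts per gene hold neither read length nor first base, so how much of the antisense counts is siRNA was not tested.

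The antisense table held 4892780 to 6568937 counts per library in the double mutant and 4891289 to 6151546 in the single mutant. The other table, read as sense because it held 99.98% of the counts of 217 microRNA genes free of opposite-strand exons, held 19529265 to 26409182 and 19206363 to 22344506. Embryonic microRNAs of the mir-35 family made up 33.7% to 36.7% of microRNA counts in the double mutant and 31.3% to 36.8% in the single mutant. The larval microRNAs let-7, lin-4, mir-48, mir-84 and mir-241 together made up 0.0202% to 0.0394% and 0.0160% to 0.0240%. MicroRNA took 72.9%, 79.0% and 89.5% of sense counts in the double mutant and 77.8%, 92.4% and 86.7% in the single mutant, so the share was highest in the third library of the double and the second of the single mutant, with the third of the single mutant close to them. Those with the 2 highest shares are called microRNA-rich here, and their sense TMM factors (the scaling for library composition) were 0.533 and 0.580, against 1.14 to 1.95 in the other 4. At dot-1.1 itself, sense counts were 23, 40 and 32 in the double mutant and 75, 66 and 55 in the single mutant, and antisense counts were 34, 45 and 29 against 44, 57 and 40. After scaling the genotypes overlapped on both strands. The log2 fold change of sense counts was -0.91 (SE 0.52, edgeR adjusted p = 0.619) and that of antisense counts -0.41 (SE 0.34, edgeR adjusted p = 0.868). The labels do not say which bases of dot-1.1 the knu339 allele changes, so small RNA counts over the gene are no check of the genotype.

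Antisense small RNA lay over nearly all of the 57 genes, at a higher density than over most protein-coding genes. Levels are given as counts per 1000000 after TMM scaling (edgeR's correction for library composition) within the antisense or the sense table, per 1000 bases of gene length. The deposited gene length was used, and it equalled the merged exon length of the Ensembl annotation for 23 of the 57 genes. It was 4166 against 2653 bases at sid-1, 3470 against 2592 at ain-1 and 5005 against 6696 at alg-1, so the order of levels depends in part on the length used. The antisense level of the 57 genes had a median of 1.72 (quartiles 1.04 and 2.71), against 0.465 (0.172 and 1.32) for 15382 protein-coding genes free of opposite-strand exons. Of the 57, 52 lay above that median, 35 above the upper quartile, and 14 above the level that 10% of those genes exceed. No count filter was applied to those 15382 genes, so genes with few or no counts lower their median. Sense levels were also above those of most protein-coding genes, with a median of 0.345 for the 57 genes and 0.135 for the others. The 2 tables are scaled by their own totals, so strands are compared by raw counts. Over all libraries the 57 genes had 13842 antisense and 12109 sense counts, and 36 of them (63.2%) had more antisense than sense counts, against 44.5% of the protein-coding genes. The latter include genes with few or no counts. Among genes with at least 20 counts on both strands together, the median antisense share was 55.5% for the 57 and 46.7% for 10867 protein-coding genes. Of the 57, 15 have opposite-strand exons, and the 40 protein-coding ones without had a median antisense level of 1.73. High levels were not confined to the list. Of other small RNA pathway genes, pid-2 and mut-2 had antisense levels of 7.99 and 6.43, and wago-5 and wago-10 had 0.178 and 0.213. These are descriptions across genes of 1 set of 6 libraries, with no test.

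**Figure D1:**
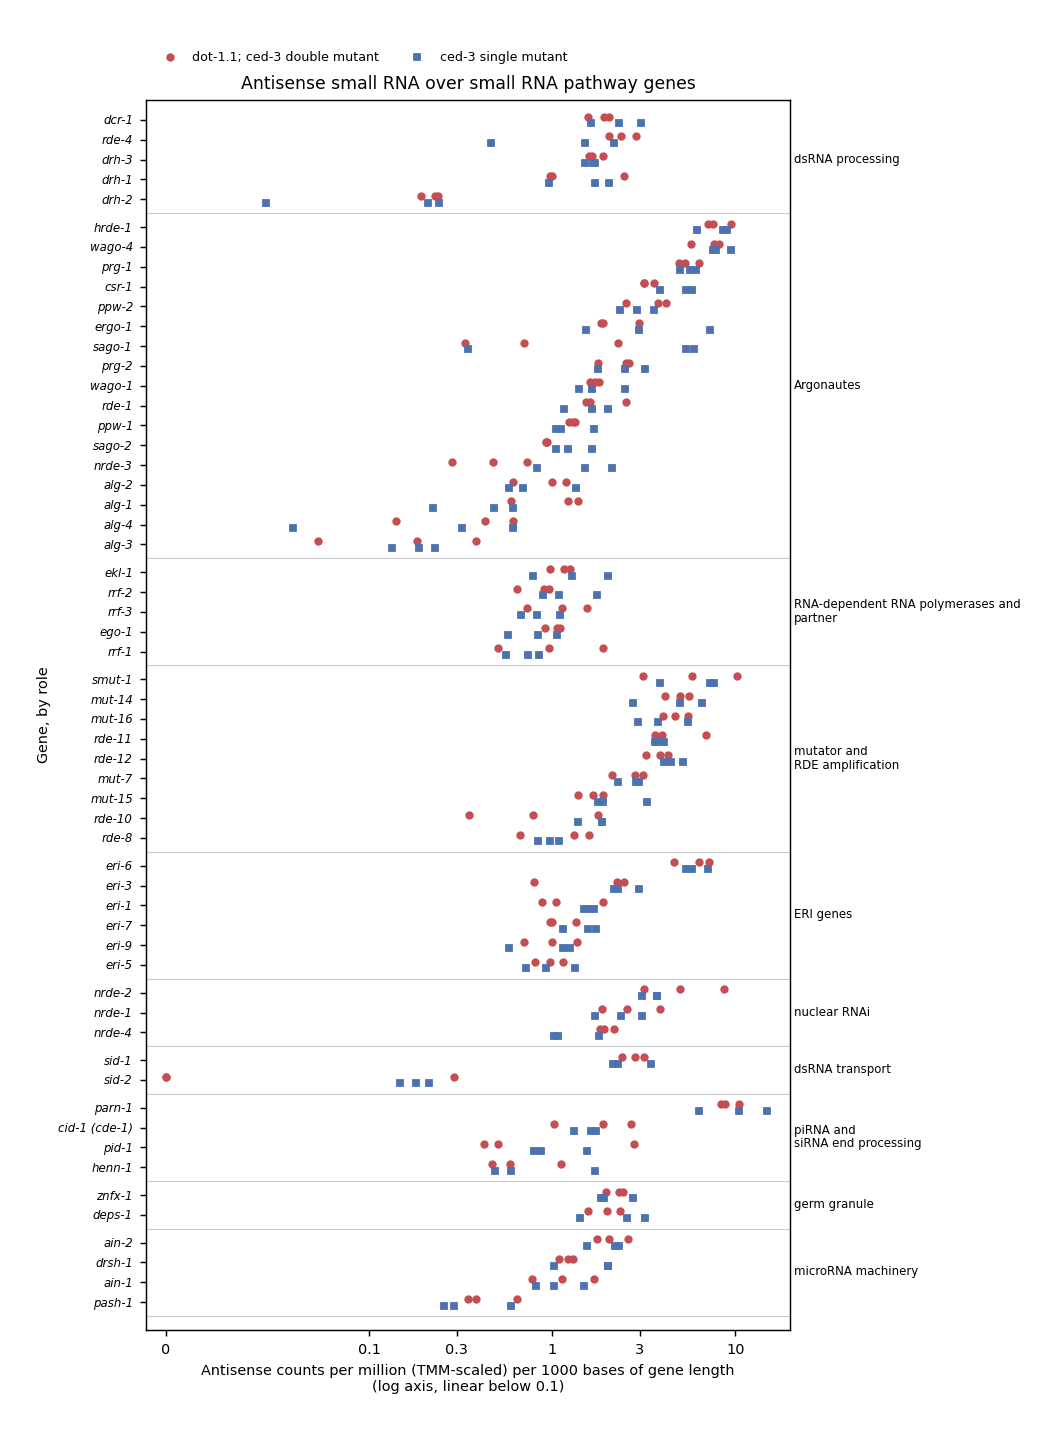
Antisense level of each of the 57 genes in every library, as TMM-scaled counts per 1000000 per 1000 bases (log axis, linear below 0.1), with circles for the 3 double mutant and squares for the 3 single mutant libraries. Genes are ordered by level within each role; parn-1, hrde-1 and wago-4 lie highest, and sid-2, drh-2 and alg-3 lowest.

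The Argonaute genes ranged from some of the highest antisense levels of the list, at hrde-1 and wago-4, to some of the lowest, at alg-3 and alg-4. The 17 Argonaute genes held 36.3% of the 13842 antisense counts. They include prg-2, annotated as a pseudogene, which had 199 antisense counts in all and a level of 2.40. At hrde-1 (chromosome III, 4172337 to 4176159, WBcel235), the nuclear Argonaute of heritable silencing, antisense counts were 141, 224 and 109 in the double mutant and 210, 100 and 164 in the single mutant. At wago-4 (II, 12919551 to 12923377), which carries inherited 22G-RNAs in germ granules, they were 145, 183 and 79 in the double mutant and 168, 122 and 172 in the single mutant. The genotypes overlapped at both. At prg-1 (I, 7585329 to 7588367), the Piwi protein that binds piRNAs, they were 74, 95 and 69 against 88, 75 and 81, which left scaled counts within 1.28-fold over all 6 libraries. The mean antisense levels of hrde-1, wago-4 and prg-1 were 7.97, 7.75 and 5.56, and that of csr-1 was 4.17. An exon of frpr-10 shares 438 bases with csr-1 on the same strand, and frpr-10 had 38 antisense counts in all. The levels of wago-1, ppw-1 and ppw-2, also of the WAGO branch, were 1.77, 1.28 and 3.22. That of rde-1, the Argonaute that takes up siRNAs of foreign double-stranded RNA, was 1.75, and that of ergo-1, which binds 26G-RNAs in embryos, was 3.08.

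The microRNA Argonautes alg-1 and alg-2 had more sense than antisense counts, and their antisense levels were 0.753 and 0.903. Over all libraries alg-1 had 121 antisense and 1229 sense counts and alg-2 had 120 and 629. Antisense counts thus made up 8.96% at alg-1, against 69.1% at hrde-1 and 71.2% at wago-4. A small nucleolar RNA gene, K02B9.10, lies over 96 bases of an alg-1 exon on the same strand, and it had 1 sense count in all. The Argonautes of sperm development, alg-3 and alg-4, had 22 and 45 antisense counts over 6 libraries and levels of 0.197 and 0.362, below the protein-coding median. Fewer cells of a type and less RNA per cell cannot be told apart in whole embryos.

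**Figure D2:**
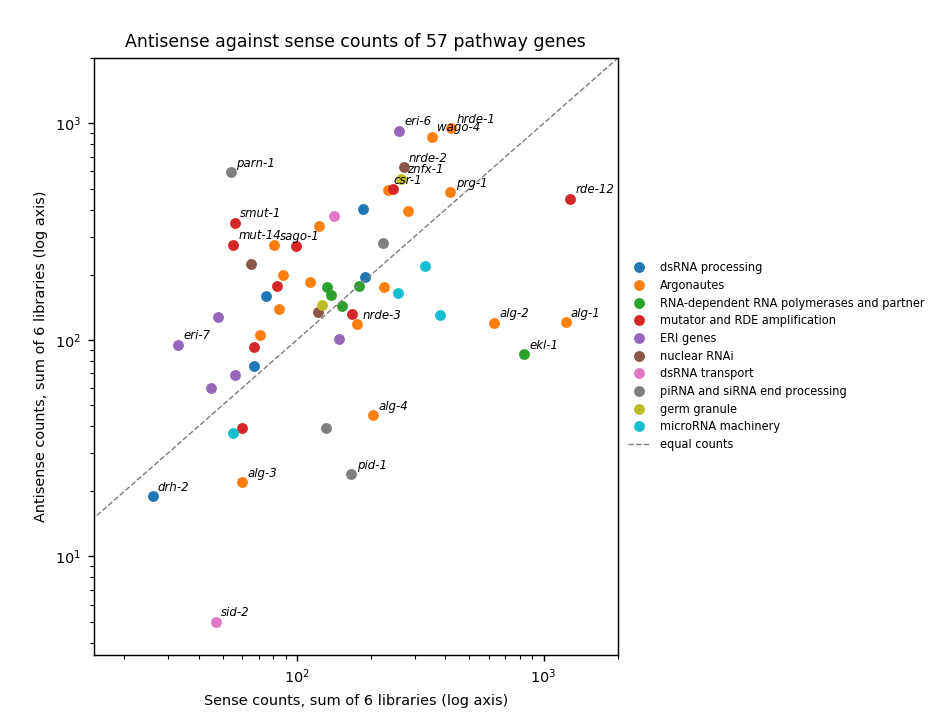
Antisense counts (vertical) against sense counts (horizontal) of the 57 genes, each the sum of 6 libraries on log axes, coloured by role, with a dashed line of equal counts. Of the 57, 36 lie above the line; parn-1, smut-1 and mut-14 lie far above it, and alg-1, ekl-1 and pid-1 far below.

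Among the 9 mutator and RDE genes, the antisense share ran from 26.0% at rde-12 to 86.1% at smut-1. Pooled over them all it was 51.9%, and rde-12 alone held 1280 of their 2113 sense counts. In the Mutator foci of germ cells, MUT-16 is the scaffold, MUT-7 a nuclease, and MUT-14 and SMUT-1 related DEAD-box helicases. The levels of smut-1, mut-14, mut-16 and mut-7 were 6.33, 4.83, 4.40 and 2.71, and mut-15 followed with 1.99. At smut-1 (V, 6097105 to 6099083) antisense counts were 31, 68 and 73 in the double mutant and 45, 59 and 72 in the single mutant, and at mut-14 (V, 5658713 to 5660704) 41, 66 and 36 against 32, 53 and 47. Antisense made up 86.1% of the counts of smut-1 and 83.3% of those of mut-14. The 2 genes are related copies, and without their sequences it was not tested how many reads they hold in common. An exon of crt-1 overlaps 92 bases of smut-1 on the other strand and crt-1 had 2244 sense counts in all. The sense counts of crt-1 were 358, 127 and 68 in the double mutant and 1060, 63 and 568 in the single mutant, and their part in the antisense counts of smut-1 was not tested. The RDE factors rde-11 and rde-12 had antisense levels of 4.34 and 4.19, while rde-10, the partner of RDE-11, and the nuclease gene rde-8 had 1.34 and 1.08.

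The polymerases that make the siRNAs had antisense levels below the median of the list, 1.72. These levels were above the median of protein-coding genes free of opposite-strand exons, 0.465. The levels of rrf-1, rrf-2, rrf-3 and ego-1 lay between 0.916 and 1.04, and 34.2% of the counts of these genes and ekl-1, which encodes a partner of the polymerases, were antisense. Without ekl-1 each of the 4 had at least 48.5% antisense counts.

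Among the ERI genes, which act with Dicer and RRF-3 to make 26G-RNAs, eri-6 stood apart. The ERI-6/7 helicase is made by joining the separate transcripts of eri-6 and eri-7. At eri-6 (I, 4457375 to 4469460) antisense counts were 166, 145 and 138 in the double mutant and 218, 124 and 136 in the single mutant, and at eri-7 (I, 4451194 to 4456805) 17, 15 and 9 against 17, 18 and 19. The mean antisense levels were 6.07 for eri-6 and 1.29 for eri-7, while eri-1, eri-3, eri-5 and eri-9 lay between 0.983 and 2.16. Exons of C41D11.6, called sosi-1 in the Ensembl annotation, cover 1131 bases of eri-6 on the other strand. C41D11.6 had 39 sense counts over all libraries and eri-6 had 927 antisense counts, and the part of the overlap in these was not tested.

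The remaining roles spread widely. The highest antisense level of all 57 genes was 9.89, at parn-1 (V, 12692486 to 12695255), which encodes the nuclease that trims the 3′ ends of piRNAs. Its antisense counts were 87, 124 and 60 in the double mutant and 173, 51 and 99 in the single mutant, and antisense made up 91.7% of its counts. Exons of frpr-15 overlap 54 bases of it on the other strand, and frpr-15 had 13 sense counts in all. By contrast henn-1, whose product methylates the 3′ ends of small RNAs, and pid-1, needed for piRNAs, had 22.9% and 12.6% antisense counts and levels of 0.827 and 1.15. The gene of the nucleotidyl transferase CDE-1, which adds uridines to CSR-1-bound siRNAs, had a level of 1.72. Of the transporters of double-stranded RNA, sid-1 had an antisense level of 2.71, and sid-2, which acts in the gut, had 5 antisense counts in all. Among nuclear RNAi genes nrde-2, nrde-1 and nrde-4 had levels of 4.56, 2.57 and 1.64. The germ granule genes znfx-1 and deps-1 had 2.20 and 2.18. Dicer (dcr-1), its partner rde-4 and the helicase genes drh-3 and drh-1 lay between 1.52 and 2.09, while drh-2, annotated as a pseudogene next to drh-1, had 19 antisense counts in all. Of the microRNA factors, ain-1 and ain-2 (partners of ALG-1) had 1.15 and 2.07, drsh-1 (Drosha) 1.44 and pash-1 (its partner) 0.418.

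The 57 genes were not placed evenly on the chromosomes. Of them, 31.6% lay on chromosome I, where 14.4% of protein-coding genes lie, and 5.26%, namely alg-1, ain-1 and nrde-3, on X, where 13.7% do. The median antisense level was 0.991 for those on X and 3.08 for the 9 on V, where the medians of protein-coding genes free of opposite-strand exons were 0.330 on X and 0.261 on V. Exons of other genes overlapped 15 of the 57 on the other strand, and at 9 of these the antisense counts exceeded all sense counts of the overlapping genes. Among the exceptions are nrde-4, with 135 antisense counts where cima-1 had 146 sense counts, and pid-1, with 24 where F18A1.1 had 1872.

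No gene of the list passed the test for a difference between genotypes on either strand. Antisense counts could be tested for 50 of the 57 genes, since 7 had too few counts (alg-3, drh-2, henn-1, pash-1, pid-1, rde-8 and sid-2). With edgeR's quasi-likelihood test, 0 rose and 0 fell in the double mutant at an adjusted p under 0.05, as in all 7297 genes tested, of which 0% were called higher and 0% lower. Before adjustment, 1 of the 50 was higher and 1 lower with a p under 0.05, where 2.91% and 2.33% of all genes were. The fold change was above 1 for 25 of the 50 and below 1 for 25, against 51.9% and 48.1% of all genes, and the median log2 fold change was -0.0014, against 0.026 for all genes. DESeq2 called 0 of the listed genes on either strand, and 6 of all genes for antisense and 1 for sense counts. Standard errors of the log2 fold change of the genes with the 8 highest antisense levels ran from 0.30 to 0.47. The libraries are called biological replicates, and the tests set each difference between genotypes against the variation between these libraries only.

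**Figure D3:**
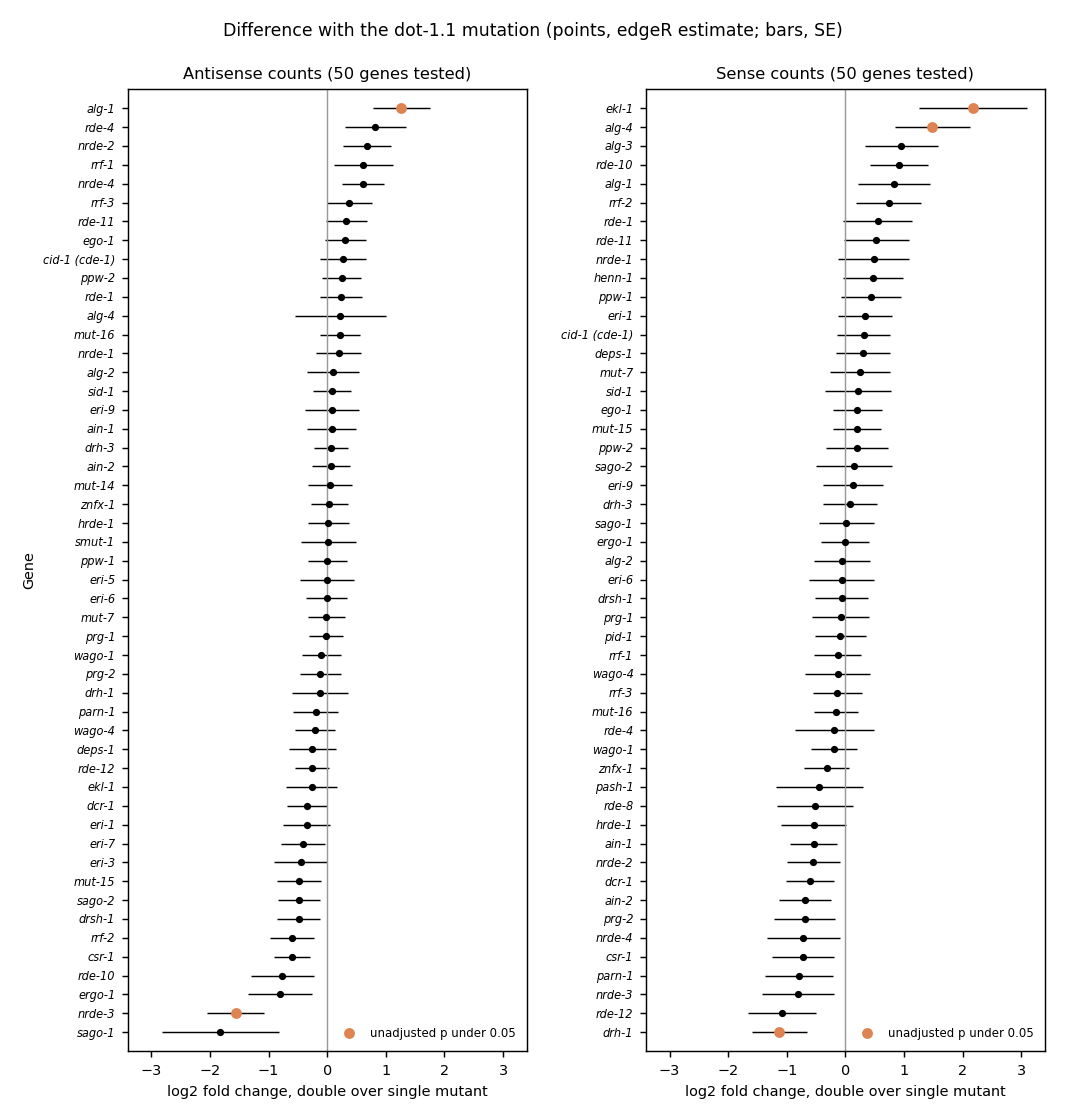
Fold changes of the 50 genes tested in the antisense table (left) and the 50 tested in the sense table (right), as log2 of double over single mutant (points) with the SE (bars); orange marks an unadjusted p under 0.05. Antisense values run from -1.82 for sago-1 to 1.26 for alg-1, and none passed after adjustment.

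The 8 genes with the highest antisense levels differed by less than 2 SE. The log2 fold change was -0.20 ± 0.38 (SE) for parn-1, 0.016 ± 0.35 for hrde-1, -0.21 ± 0.34 for wago-4 and 0.015 ± 0.47 for smut-1. It was -0.0097 ± 0.35 for eri-6, -0.018 ± 0.30 for prg-1, 0.054 ± 0.37 for mut-14 and 0.68 ± 0.41 for nrde-2. All 8 had an edgeR adjusted p between 0.846 and 0.997. Normalised counts per 1000000 averaged 28.4 ± 4.41 in the double mutant and 28.1 ± 5.52 in the single mutant at hrde-1 (SD, n = 3 each). At wago-4 they averaged 24.2 ± 4.22 in the double mutant and 28.0 ± 3.48 in the single mutant (SD, n = 3 each). At nrde-2, which encodes the nuclear RNAi factor that inhibits transcription elongation with NRDE-3, antisense counts were 200, 136 and 53 in the double mutant and 100, 70 and 68 in the single mutant. The first double mutant library was the highest of the 6 after scaling, with 35.6 per 1000000, and without it the log2 fold change was 0.22 ± 0.38.

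Antisense counts of nrde-3, the somatic nuclear Argonaute that carries siRNAs into the nucleus, had the smallest p of the list. They were 14, 11 and 4 in the double mutant and 48, 13 and 28 in the single mutant (X, 372235 to 376900). After scaling they averaged 1.70 ± 0.757 per 1000000 in the double mutant and 5.11 ± 2.24 in the single mutant (SD, n = 3 each), and the scaled counts of the genotypes did not overlap. The log2 fold change was -1.56 ± 0.49 (unadjusted p = 0.0114, edgeR adjusted p = 0.846), and it was -1.62 ± 0.48 without the 2 microRNA-rich libraries. Its sense counts were 27, 9 and 13 against 95, 7 and 25, and overlapped between the genotypes (log2 fold change -0.81 ± 0.61).

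A related Argonaute gene, sago-1 (V, 6303771 to 6308337), varied most between libraries. Antisense counts were 40, 7 and 9 in the double mutant and 122, 5 and 91 in the single mutant. Replicates 1 and 3 of the single mutant were thus high and its replicate 2 was among the lowest, so that the genotypes overlapped and scaled counts spanned 17.8-fold. The log2 fold change was -1.82 ± 1.00 (edgeR adjusted p = 0.846). Leaving out the 2 microRNA-rich libraries, to which the low single mutant library belongs, gave -2.17 ± 0.71. Without replicate 1 of the double mutant it was -2.96 ± 1.24. Over the 43 genes of the list with at least 100 antisense counts the median span was 2.12-fold, 21 spanned less than 2-fold and 4 more than 4-fold. Those 4 were sago-1, nrde-3, alg-1 and ergo-1, which had 64, 49 and 29 antisense counts in the double mutant and 75, 27 and 150 in the single mutant.

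Antisense counts of alg-1 (X, 13949110 to 13956261) were higher in the double mutant, with 39, 20 and 25 against 20, 11 and 6 in the single mutant. Scaled, they averaged 5.35 ± 2.09 in the double mutant and 2.18 ± 0.980 per 1000000 in the single mutant (SD, n = 3 each), and the genotypes overlapped (log2 fold change 1.26 ± 0.49, unadjusted p = 0.0303, edgeR adjusted p = 0.846). Its paralog alg-2 had 28, 17 and 17 against 19, 26 and 13, with a log2 fold change of 0.097 ± 0.45. The difference between these 2 fold changes was not tested.

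At csr-1 (IV, 7957267 to 7962157), whose product binds 22G-RNAs against germline messages, antisense counts were 65, 78 and 54 in the double mutant and 93, 98 and 106 in the single mutant. Scaled, they averaged 12.1 ± 0.945 in the double mutant and 18.4 ± 3.77 per 1000000 in the single mutant (SD, n = 3 each), and the genotypes lay apart both in raw and in scaled counts (log2 fold change -0.60 ± 0.31, edgeR adjusted p = 0.846). Sense counts of csr-1 were also lower, with 26, 35 and 25 against 54, 57 and 37, and overlapped after scaling (log2 fold change -0.73 ± 0.53, edgeR adjusted p = 0.684). The antisense change differed from the sense change by a log2 ratio of -0.0014. Scaled antisense counts also lay apart at nrde-4, higher in the double mutant with 31, 31 and 20 counts against 18, 21 and 14, and at sago-2, lower with 15, 18 and 11 against 20, 22 and 19. With nrde-3 these make 4 of 50 genes, none of which passed adjustment, and over all genes tested the genotypes did not overlap at 10.2%. Raw counts overlapped at nrde-4 and nrde-3, and the scaled margins there were small. At nrde-4 the lowest double mutant library had 4.62 per 1000000 and the highest single mutant library 4.57. At nrde-3 the highest double mutant library had 2.49 and the lowest single mutant library 2.83.

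**Figure D4:**
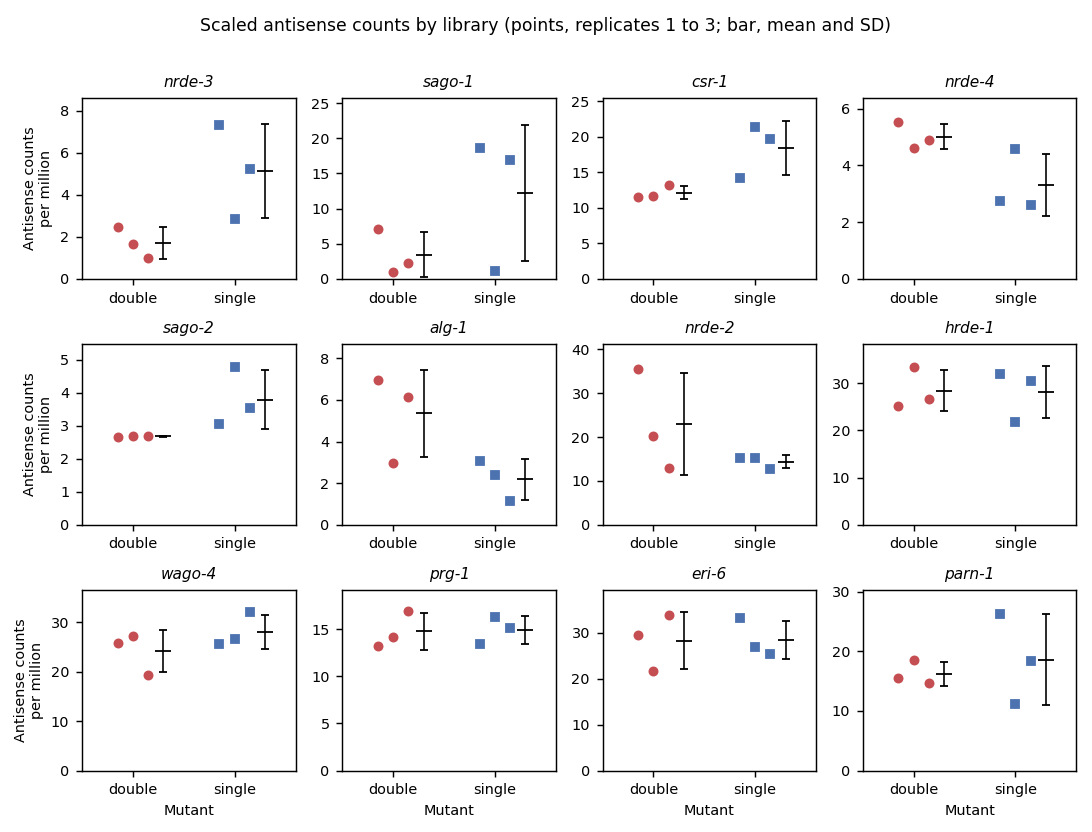
Antisense counts per 1000000, scaled by TMM, in each library of 12 genes (circles, double mutant replicates 1 to 3; squares, single mutant replicates 1 to 3; bars, mean and SD). The genotypes lie apart for nrde-3, csr-1, nrde-4 and sago-2, while sago-1 is high in replicates 1 and 3 of the single mutant only.

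Sense counts could be tested for 50 of the 57 genes, and 0 rose and 0 fell after adjustment, as did 0% of 7680 genes in either direction. At an unadjusted p under 0.05, 2 were higher and 1 lower, where 5.73% and 2.40% of all genes were. The fold change was above 1 for 23 of the 50 and below 1 for 27 (50.9% and 49.1% of all genes), with a median log2 fold change of -0.059, against 0.015 for all genes. Scaled sense counts lay apart at 4 of the 50, where 12.8% of all genes did so. These were znfx-1, drh-1 and ain-1, lower in the double mutant, and rde-10, higher.

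The highest sense levels were those of ekl-1, rde-12, alg-1, pid-1 and prg-1, at 2.63, 2.46, 1.95, 1.81 and 1.27. At ekl-1 (I, 7095486 to 7098400) sense counts were 526, 121 and 12 in the double mutant and 113, 18 and 40 in the single mutant. Replicates 1 and 2 of the double mutant were the highest of the 6 after scaling and its replicate 3 the lowest (log2 fold change 2.18 ± 0.93, unadjusted p = 0.0409, edgeR adjusted p = 0.590). Without replicate 1 of the double mutant the log2 fold change was 0.59 ± 0.68, and it was 2.47 ± 0.64 when the 2 microRNA-rich libraries were left out (edgeR adjusted p = 0.0612). Those 2 libraries held the lowest scaled sense counts of ekl-1 in each genotype, 0.853 in the double and 1.39 in the single mutant. Leaving them out thus removed the double mutant library that went against the difference. The sperm Argonaute gene alg-4 (III, 9887209 to 9891424) had 96, 39 and 8 sense counts in the double mutant and 35, 6 and 19 in the single mutant, again highest in replicate 1 of the double mutant (log2 fold change 1.48 ± 0.64, unadjusted p = 0.0430, edgeR adjusted p = 0.590). Without that library it was 0.61 ± 0.59.

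The helicase gene drh-1 (IV, 6607376 to 6613353), which acts in antiviral RNAi, had 6, 8 and 6 sense counts in the double mutant and 31, 11 and 13 in the single mutant. Scaled, they averaged 0.342 ± 0.0909 in the double mutant and 0.740 ± 0.172 per 1000000 in the single mutant (SD, n = 3 each), with a log2 fold change of -1.12 ± 0.47 (unadjusted p = 0.0395, edgeR adjusted p = 0.590). The DEAD-box helicase gene rde-12 (V, 13665389 to 13669292) had 173, 72 and 75 sense counts in the double mutant and 618, 60 and 282 in the single mutant, so that replicates 1 and 3 of the single mutant were the highest (log2 fold change -1.08 ± 0.58, edgeR adjusted p = 0.603). At alg-1 sense counts were 107, 467 and 173 in the double mutant and 165, 97 and 220 in the single mutant. Their log2 fold change was 0.83 ± 0.62 (edgeR adjusted p = 0.691), and without replicate 2 of the double mutant, its highest library, the log2 fold change was 0.26 ± 0.67. At pid-1 sense counts were 31, 30 and 15 in the double mutant and 44, 25 and 21 in the single mutant (log2 fold change -0.087 ± 0.43). At prg-1 they were 61, 60 and 67 in the double mutant and 103, 68 and 60 in the single mutant (log2 fold change -0.079 ± 0.48).

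Unequal change of the antisense and sense counts of a gene was tested as an interaction of strand and genotype. Of the 57 genes, 53 entered this test, and 0 passed with a more positive and 0 with a more negative antisense change, as did 0% of 11886 genes. At an unadjusted p under 0.05 there were 0 and 2 of the 53, where 2.81% and 2.84% of all genes were. The 2 were sago-1, whose antisense change was lower than its sense change by a log2 ratio of -1.94 ± 0.82 (edgeR adjusted p = 0.825), and rde-10, with -1.75 ± 0.83 (edgeR adjusted p = 0.862).

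Among other genes of small RNA pathways, 67 of 72 names stood in the tables, and 56 could be tested for antisense and 49 for sense counts. By edgeR, 0 passed after adjustment on either strand. With an unadjusted p under 0.05, 1 had higher and 2 lower antisense counts, where 2.91% and 2.33% of all genes did, and 4 had higher and 1 lower sense counts, where 5.73% and 2.40% did. Those of antisense counts were xpo-1, an exportin gene, with 58, 52 and 38 in the double mutant and 37, 23 and 22 in the single mutant, and meg-4 and tofu-5. The germ granule gene meg-4 had 6, 16 and 4 antisense counts against 29, 11 and 19, and the piRNA factor gene tofu-5 had 8, 17 and 5 against 20, 31 and 25. Sense counts of tofu-5 differed in the other direction, with 35, 53 and 22 in the double mutant and 28, 14 and 21 in the single mutant (log2 fold change 1.00 ± 0.41, edgeR adjusted p = 0.590), while its antisense log2 fold change was -1.42 ± 0.46 (edgeR adjusted p = 0.846). The difference between the 2 had an edgeR adjusted p of 0.672. The other sense log2 fold changes with such a p were 1.76 ± 0.61 at pid-3, 0.94 ± 0.40 at tofu-7, 1.80 ± 0.78 at simr-1 and -1.56 ± 0.46 at pup-2, and the edgeR adjusted p of these 4 was 0.590. Sense counts of pid-3 were 96, 38 and 9 in the double mutant and 26, 8 and 13 in the single mutant, and those of simr-1 were 288, 82 and 13 in the double mutant and 65, 13 and 46 in the single mutant. As at ekl-1 and alg-4, the first double mutant library was the highest at both after scaling, and at both the genotypes overlapped.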

How the data were processed

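The authors deposited counts of small RNA reads per gene in 2 tables, antisense and sense, raw and not normalised, with a gene length, for 6 libraries. The build was WBcel235 per the submitters' processing notes, with aligner and counter not given in the sources used here. Columns were matched to libraries by genotype and replicate number, and 0 columns were left unused; numbers 2 and 3 differ from the short names in the titles. Exon overlaps came from the Ensembl annotation of WBcel235, to which 30636 of 32238 genes were matched.

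Counts were tested with edgeR 4.0.16 in R 4.3.3 (TMM, its default low count filter, robust quasi-likelihood test, Benjamini-Hochberg adjustment over all genes tested, threshold 0.05), with DESeq2 1.42.0 as an alternative. The code was tested on simulated counts. The strand test used library blocks. SE is the log2 fold change divided by the square root of F. TMM factors correct composition only in part, and the microRNA share differed between libraries.

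The genes given with values in every library were the 8 with the highest antisense and the 5 with the highest sense level, those with an unadjusted p under 0.05, and the 4 with the smallest antisense p. Other pathway genes were named by that p. The counts of eri-7, ergo-1, alg-2, nrde-4 and sago-2 were added to these once their values were known. The members and lists were chosen with earlier results of these data known. Paralogs such as mut-14 and smut-1, prg-1 and prg-2, alg-3 and alg-4, or drh-1 and drh-2 may share reads, so their counts are uncertain.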

Additional observations from a re-analysis of the deposited data

How the results depend on the processing

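In the antisense, sense and strand difference tests, 0 listed genes were called under every alternative that was run. The count over all genes was less stable. For antisense counts it was 0 in the main test, 3 with the scaling of the sense table, 114 with no low count filter and 6 with DESeq2. For sense counts it was 0, 117 with no filter, 1 with DESeq2, 161 without the 2 microRNA-rich libraries, and 0 to 6 leaving out 1 library in turn (6 without replicate 3 of the double mutant). For the strand difference it was 0 to 68 leaving out 1 library (9 without replicate 1 and 68 without replicate 3 of the double mutant). The cause was not tested.

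Of 258 alternative values of 19 named log2 fold changes, 226 kept their sign and 32 reversed, those of values between -0.20 and 0.054 in the main test, and 11 of the 19 never reversed. Antisense hrde-1 was -0.018 with library totals and with no filter, -0.012 with DESeq2 and -0.097 without the 2 microRNA-rich libraries. Leaving out 1 library, it ran from -0.14 to 0.10, reversed at -0.11 and -0.14. Antisense smut-1 was -0.072 with library totals, -0.025 with microRNA scaling, -0.039 with no filter, -0.027 with DESeq2, -0.070 with the replicate block and -0.35 without the microRNA-rich libraries. Leaving out 1 library, it ran from -0.45 to 0.34, reversed at -0.45 and -0.26. Antisense prg-1 was 0.026 with microRNA and 0.084 with sense table scaling, and 0.011, 0.046 and 0.058 leaving out 1 library. Antisense parn-1 was 0.068 and eri-6 0.13 with sense table scaling. Leaving out 1 library, parn-1 ran from -0.47 to 0.12, eri-6 from -0.15 to 0.16 (also reversed at 0.095), and mut-14 from -0.25 to 0.34 (also reversed at -0.054). Sense prg-1 was 0.012 and pid-1 0.36 without the microRNA-rich libraries. Leaving out 1 library, sense prg-1 ran from -0.44 to 0.33 (also reversed at 0.051 and 0.064), and pid-1 from -0.46 to 0.25. Sense drh-1 gave no value without replicate 3 of the single mutant, where it did not pass the filter.

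With the replicate block, 0 listed genes and 0 genes in all were called on either strand. The main test had no block, since shared numbers alone do not pair libraries. Deviations of same-numbered libraries correlated at 0.64, -0.019 and -0.027 for antisense and 0.67, 0.027 and -0.12 for sense counts. Not every library correlated best with its own number. Replicate 3 of the double and 2 of the single mutant, the 2 microRNA-rich libraries, correlated at 0.55 for antisense and 0.57 for sense counts. Replicate 1 of the double and 2 of the single mutant correlated at -0.58 and -0.62. Genes with few counts, such as sid-2 and drh-2, could not be tested at this depth.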
